A study of Homo sapiens with 6 samples.

Results

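The proteasome subunit genes are the genes whose symbol is PSM followed by 1 of the letters A to G and a number, with pseudogenes left out. This name rule found 46 of the 24878 genes in the table, and all 46 passed the filter on low counts, which left 14601 genes for testing. They were divided by role into 7 alpha and 7 constitutive beta genes of the core particle, 3 immunoproteasome beta genes, 6 ATPase and 11 non-ATPase genes of the regulatory particle, 4 activator genes, the inhibitor gene PSMF1 and 7 assembly factor genes. PSMA8 and PSMB11, which GENCODE 29 also holds, were not analysed here.

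RNA-seq of poly-A selected RNA was measured in MOLM-13 cells, a human line of monocytic acute myeloid leukaemia (AML-M5), in 3 groups of 2 libraries each. The knockout cells carried a doxycycline-inducible CaMK2D-KO vector and had been induced with doxycycline for 3 days (KO day 3) or 5 days (KO day 5), and the controls were MOLM-13 cells described with a control vector and no induction. CaMK2D is a calcium/calmodulin-dependent kinase, and the comparisons ask which transcripts differ once its knockout is induced. The KO libraries differ from the controls in vector and in doxycycline at once, and these cannot be told apart. The sources used here do not say whether the KO cells were 1 clone, or whether replicate libraries were grown as separate cultures. The p-values therefore rest on the spread among these 6 libraries, and that spread may be technical.

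Total counts lay between 15456770 and 21081298 per library, and a count of 0 allows at most 0.194 CPM (counts scaled to library size) in the shallowest one, for counting error only. CAMK2D itself stood at 14.7 and 15.6 CPM at KO day 3 and 28.98 and 28.1 CPM at KO day 5, against 23.0 and 14.5 CPM in the controls. Neither the log2 fold change of -0.30 at day 3 (edgeR adjusted p = 0.437) nor that of 0.61 at day 5 (edgeR adjusted p = 0.118) passed the threshold. The transcript level therefore does not check the labels, and every direction below is that of libraries labelled CaMK2D-KO. All 12 myeloid markers were above 1 CPM in at least 1 library, and their summed level was 1247 to 1418 CPM at KO day 3 and 1300 to 1641 CPM at KO day 5, against 3069 to 3747 CPM in the controls. By edgeR 4 of the 12 fell and none rose at day 3, beside 5.99% and 5.72% of all tested genes. At day 5, 5 fell and 1 rose, beside 7.05% and 7.44%. The gene that rose was CEBPA (log2 fold change 0.48, edgeR adjusted p = 0.0287). The sums turn mainly on FLT3, with mean levels of 334 CPM at KO day 3 and 255 CPM at KO day 5, against 969 CPM in the controls, and on MPO, with 22.1 CPM at KO day 3 and 11.2 CPM at KO day 5, against 941 CPM in the controls. The T cell and epithelial marker lists had no row in the table, the erythroid and stromal sums were at most 0.273 and 0.575 CPM, and the B cell sums lay between 20.4 and 35.5 CPM. In bulk RNA, fewer cells of a type and less RNA per cell cannot be told apart, and the part of the myeloid marker difference in the results below was not tested.

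The proteasome degrades ubiquitin-tagged proteins to peptides. Its core particle is a stack of alpha and beta rings whose beta subunits PSMB5, PSMB6 and PSMB7 cut the chain, and its regulatory particle recognises, deubiquitinates, unfolds and threads the substrate with a ring of ATPases. Interferon signalling replaces the catalytic subunits by PSMB8, PSMB9 and PSMB10, the immunoproteasome, which is abundant in blood cells and shapes the peptides shown on MHC class I, while the transcription factor NFE2L1 raises the genes of the whole particle when its activity falls short.

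Most proteasome genes were higher at both KO time points than in the controls, by modest amounts. At KO day 3, 10 of the 46 genes rose and 0 fell by edgeR's quasi-likelihood test at an adjusted p below 0.05, where 5.72% of all tested genes rose and 5.99% fell. The 10 were PSMA4, PSMA7, PSMB7, PSMB9, PSMC5, PSMD8, PSMD14, PSME2, PSMF1 and PSMG4. At an unadjusted p below 0.05, 27 proteasome genes were higher and 0 lower at day 3, beside 2103 and 2120 of the 14601 genes. DESeq2 called 17 higher and 0 lower, beside 1294 and 1344 of all genes, and limma on log2(FPKM + 1) called 9 and 0, beside 598 and 743. Limma was run here and below on genes with a mean of at least 0.5 FPKM, 44 of the 46. The median log2 fold change of the 46 genes at day 3 was 0.41, beside -0.0001 over all tested genes. Both KO day 3 libraries lay above both controls for 34 of the 46 genes, against 30.3% of all genes, and below both for 3 (PSMA2, PSMD1 and PSMD9), against 30.1%.

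At KO day 5, PSMA3, PSMA7, PSMB9, PSMD7, PSMD14 and PSMF1 rose, 6 of 46 against a background of 7.44%, and PSMD1 fell, 1 of 46 against 7.05%. At an unadjusted p below 0.05, 20 were higher and 3 lower at day 5, beside 2346 and 2158 of the 14601 genes. DESeq2 called 9 higher and 1 lower, beside 1459 and 1518 of all genes, and limma called 6 and 0, beside 1017 and 779. The median log2 fold change at day 5 was 0.30, beside 0.015 over all tested genes. Both KO day 5 libraries lay above both controls for 27 of the 46 genes, against 29.6% of all genes, and below both for 6 (PSMA2, PSMD1, PSMD2, PSMD9, PSMD13 and PSMG2), against 28.4%. The day 3 and day 5 comparisons share the 2 control libraries, so they are not independent of each other.

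The calls depended on single libraries. For day 3, the count of 10 became 0 without either KO day 3 library, where edgeR's adjusted p of the 10 genes ran between 0.0589 and 0.156 without replicate 1 and between 0.0803 and 0.208 without replicate 2. Their log2 fold changes then lay between 0.55 and 1.72 and between 0.48 and 1.48 in that order, beside 0.53 to 1.59 with all libraries, while the calls over all genes went down to 282 and 333, beside 1710 with all libraries. Without control replicate 1 it was 4 (PSMA4, PSMA7, PSMB9 and PSMD8), and without control replicate 2 it was 19. Without either KO day 5 library it was 9, and PSME2 was the gene no longer called, at edgeR adjusted p values of 0.0537 and 0.0536. For day 5, the count of 7 became 2 without either KO day 3 library (PSMB9 and PSMD14), 3 without KO day 5 replicate 1 (PSMB9, PSMD1 and PSMD14) and 1 without KO day 5 replicate 2 (PSMD14). It was 5 without control replicate 1 and 10 without control replicate 2, and of the 7 genes PSMA3, PSMB9 and PSMD14 were called in the first case and PSMA7, PSMB9 and PSMD14 in the second. PSMD14 at day 5 was thus called with any 1 library left out.

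**Figure D1:**
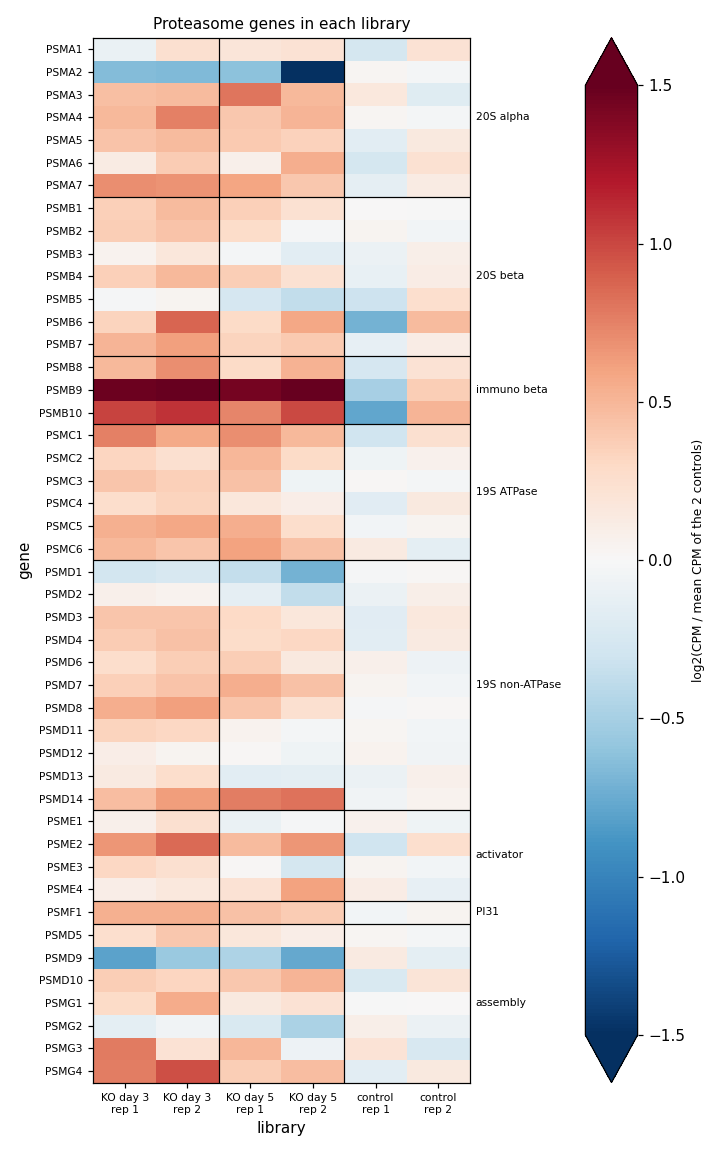
Level of each of the 46 proteasome genes (rows, grouped by role) in each of the 6 libraries (columns), as the log2 ratio of its CPM to the mean CPM of the 2 controls, with red above and blue below that mean. Most rows are red in all 4 KO columns, PSMB9 among the darkest, while PSMA2, PSMD1 and PSMD9 are blue.

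Summed over the 46 genes, the deposited FPKM values came to 1804 and 1871 at KO day 3 and 1758 and 1699 at KO day 5, against 1353 and 1502 in the controls. All 4 KO sums thus lay above both control sums, at 1.29 times the control mean at day 3 and 1.21 times at day 5. By role, the ratio of summed FPKM at day 3 to control was 1.73 for the immunoproteasome genes, 1.46 for the alpha genes, 1.41 for PSMF1, 1.27 for the ATPases, 1.256 for the constitutive beta genes, 1.23 for the assembly factors, 1.23 for the non-ATPases and 1.21 for the activators. At day 5 the same ratios were 1.67, 1.45, 1.37, 1.23, 1.17, 1.13, 1.14 and 1.08 in that order of roles. The sums were not tested, and a sum is dominated by its most abundant genes.

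**Figure D2:**
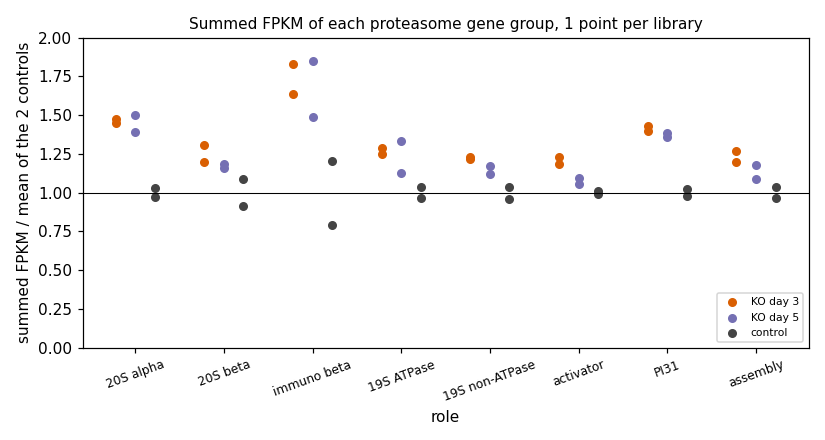
Summed FPKM of each role divided by the mean of the 2 controls (linear axis), with 1 point per library for KO day 3, KO day 5 and control. The KO points lie above both control points in all 8 roles, and the immunoproteasome and alpha roles show the largest ratios of group means.

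The alpha genes form the outer rings of the core particle and its gate. Of the 7 alpha genes, 2 rose and none fell at each time point by edgeR. Over all tested genes, 5.72% rose and 5.99% fell at day 3, and 7.44% rose and 7.05% fell at day 5. The median log2 fold change of the 7 genes was 0.45 at day 3 and 0.37 at day 5, beside -0.0001 and 0.015 over all tested genes. PSMA7, the most abundant alpha gene per length, had 116 and 112 FPKM at KO day 3 and 111 and 100.1 FPKM at KO day 5, against 67.1 and 78.3 FPKM in the controls. It rose at both times, by 0.68 on the log2 scale at day 3 (SE 0.13, edgeR adjusted p = 0.0181) and 0.50 at day 5 (SE 0.13, edgeR adjusted p = 0.0413), and the KO and control values did not overlap. PSMA4 had 31.9 and 37.5 FPKM at KO day 3 and 31.0 and 34.1 FPKM at KO day 5, against 23.7 and 22.4 FPKM in the controls. Its KO values were all above its control values, and its log2 fold change of 0.63 passed the test at day 3 (SE 0.13, edgeR adjusted p = 0.0217) while that of 0.46 at day 5 did not (SE 0.13, edgeR adjusted p = 0.0506). PSMA3, whose tail binds many proteins, had 36.5 and 36.4 FPKM at KO day 3 and 47.9 and 39.6 FPKM at KO day 5, against 30.6 and 23.6 FPKM in the controls. It rose at day 5, by 0.65 on the log2 scale (SE 0.16, edgeR adjusted p = 0.0325), and its log2 fold change of 0.46 at day 3 missed the threshold (SE 0.16, edgeR adjusted p = 0.0995). PSMA5 had log2 fold changes of 0.45 and 0.37 at days 3 and 5 with no overlap between KO and control, and did not pass. PSMA1, PSMA2 and PSMA6 did not pass either, and their low levels are taken up with the gene overlaps below.

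The constitutive beta genes include the 3 catalytic subunits of the ordinary core. Of these 7 genes, PSMB7 alone passed edgeR's threshold at day 3, beside 5.72% of all tested genes, and none passed it at day 5. At an unadjusted p below 0.05, 4 were higher and 0 lower at day 3, beside 2103 and 2120 of the 14601 genes. At day 5, 3 were higher and 0 lower in the same way, beside 2346 and 2158. DESeq2 called 3 higher at day 3 and limma 1, beside 1294 and 598 of all genes, and both called 0 at day 5. PSMB7, the trypsin-like subunit, had 83.3 and 87.6 FPKM at KO day 3 and 76.1 and 80.6 FPKM at KO day 5, against 55.1 and 63.4 FPKM in the controls. All 4 KO values lay above both controls, with a log2 fold change of 0.56 at day 3 (SE 0.13, edgeR adjusted p = 0.0284) and 0.36 at day 5 (SE 0.13, edgeR adjusted p = 0.0951). PSMB6, the caspase-like subunit, had 66.9 and 94.4 FPKM at KO day 3 and 66.4 and 83.0 FPKM at KO day 5, against 33.0 and 73.8 FPKM in the controls. Its groups overlapped because the 2 controls stood far apart, and neither log2 fold change, 0.63 at day 3 and 0.44 at day 5, passed (SE 0.41 each). Without control replicate 2 both passed, at 1.35 (edgeR adjusted p = 0.0207) and 1.12 (edgeR adjusted p = 0.0375), and without control replicate 1 they were 0.16 and -0.0444. PSMB5, the chymotrypsin-like subunit and main target of bortezomib, had 44.4 and 45.0 FPKM at KO day 3 and 38.7 and 36.6 FPKM at KO day 5, against 36.9 and 53.9 FPKM in the controls. Its KO values lay within or just below the control range, with log2 fold changes of 0.01 at day 3 (SE 0.19, edgeR adjusted p = 0.981) and -0.31 at day 5 (SE 0.19, edgeR adjusted p = 0.294). Without control replicate 1 the day 3 value was -0.24, and the day 5 value was -0.58 and passed (edgeR adjusted p = 0.0344). The non-catalytic PSMB4, the most abundant of all 46 genes per length, had 155 and 164 FPKM at KO day 3 and 160 and 149 FPKM at KO day 5, against 114 and 130.4 FPKM in the controls. It did not overlap with the controls and did not pass, at edgeR adjusted p values of 0.0721 and 0.157. PSMB2, the least abundant constitutive beta gene, had 31.9 and 32.4 FPKM at KO day 3 and 30.6 and 25.5 FPKM at KO day 5, against 25.9 and 23.9 FPKM in the controls. PSMB1 and PSMB3 had log2 fold changes between -0.09 and 0.41 and did not pass.

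Of the 3 immunoproteasome genes, PSMB9 rose at both times, where 5.72% and 7.44% of all tested genes rose at days 3 and 5. PSMB8 and PSMB10 did not pass edgeR's threshold. PSMB9, whose product takes the place of PSMB6, had 18.8 and 21.7 FPKM at KO day 3 and 18.96 and 25.8 FPKM at KO day 5, against 4.93 and 8.82 FPKM in the controls. All 4 KO values were more than 2 times the higher control value. PSMB9 rose 3.00-fold at day 3 (log2 fold change 1.59, SE 0.29, edgeR adjusted p = 0.0192) and 3.14-fold at day 5 (log2 fold change 1.65, SE 0.29, edgeR adjusted p = 0.0144), the highest log2 fold change among the 46 genes at each time. The day 3 value was between 1.23 without control replicate 1 and 2.10 without control replicate 2. PSMB8, whose product takes the place of PSMB5, had 57.9 and 65.6 FPKM at KO day 3 and 52.1 and 62.6 FPKM at KO day 5, against 35.6 and 48.3 FPKM in the controls. PSMB10, whose product takes the place of PSMB7, had 17.2 and 17.6 FPKM at KO day 3 and 14.5 and 17.9 FPKM at KO day 5, against 5.06 and 12.1 FPKM in the controls. The KO values of PSMB8 and PSMB10 all lay above both controls, yet neither gene passed edgeR's threshold. The log2 fold changes of PSMB8 were 0.59 at day 3 (SE 0.18, edgeR adjusted p = 0.0684) and 0.41 at day 5 (SE 0.18, edgeR adjusted p = 0.162). Those of PSMB10 were 1.04 at day 3 (SE 0.38, edgeR adjusted p = 0.126) and 0.86 at day 5 (SE 0.38, edgeR adjusted p = 0.177). At day 3 both genes passed with DESeq2, at adjusted p values of 0.0252 for PSMB8 and 0.0361 for PSMB10, and in edgeR without control replicate 2, at 0.0114 and 0.00258 in that order. The day 3 log2 fold change of PSMB8 was 0.86 without control replicate 2 and 0.38 without control replicate 1 (edgeR adjusted p = 0.191), and that of PSMB10 was 1.84 and 0.54 (edgeR adjusted p = 0.162) in the same order. At day 5, edgeR called both genes without control replicate 2, at log2 fold changes of 0.63 (adjusted p = 0.0354) for PSMB8 and 1.62 (adjusted p = 0.00407) for PSMB10, and neither without control replicate 1, at 0.19 and 0.35.

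Within the 6 catalytic genes, the immunoproteasome genes held 32.6% and 31.6% of the FPKM at KO day 3 and 32.1% and 34.7% at KO day 5, against 26.7% and 26.6% in the controls. The share was higher in each KO library than in either control, and was not tested. The FPKM ratio of PSMB8 to PSMB5 was 1.31 and 1.46 at KO day 3 and 1.35 and 1.71 at KO day 5, against 0.963 and 0.896 in the controls. The ratio of PSMB9 to PSMB6 was 0.281 and 0.230 at KO day 3 and 0.285 and 0.311 at KO day 5, against 0.150 and 0.120 in the controls. For both pairs the KO ratios lay above both control ratios. The ratio of PSMB10 to PSMB7 was 0.206 and 0.201 at KO day 3 and 0.191 and 0.222 at KO day 5, against 0.0918 and 0.191 in the controls, so KO day 5 replicate 1 and control replicate 2 were level.

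**Figure D3:**
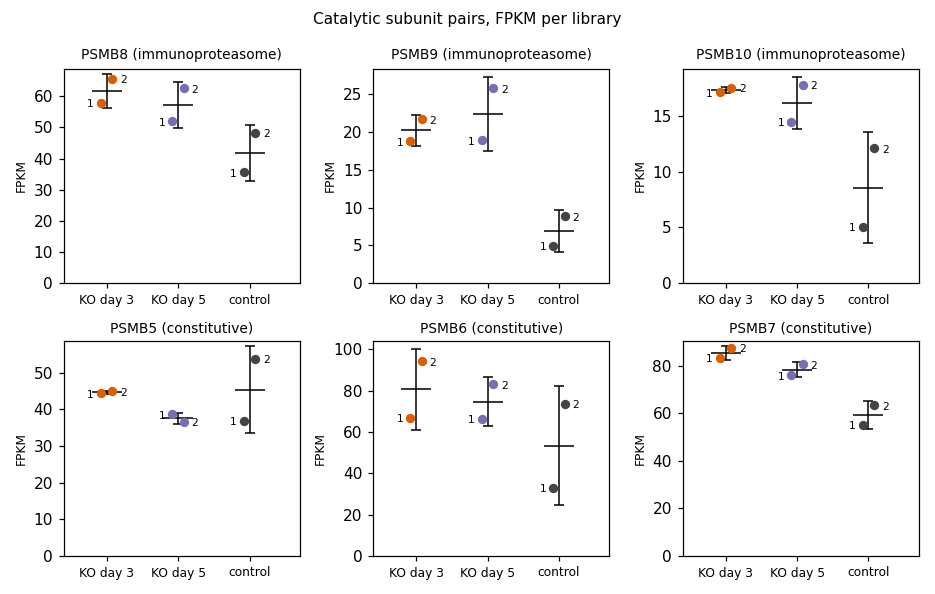
FPKM per library (points numbered by replicate) with the mean and SD of 2 libraries (black), for KO day 3, KO day 5 and control, in panels for each immunoproteasome gene (top) and the constitutive gene whose product it replaces (bottom). All KO points lie above both control points for PSMB8, PSMB9, PSMB10 and PSMB7, and the controls of PSMB5 and PSMB6 span their KO values or overlap them.

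PSMB8 (GRCh38 chromosome 6, 32840717 to 32844703, minus strand) and PSMB9 (chromosome 6, 32844136 to 32859585, plus strand, GENCODE 29) are neighbours in the MHC class II region, and the start of PSMB9 in RefSeq lies 488 bases from that of TAP1 on the other strand. The sequences before their start sites are shown with those of PSMB10, TAP1 and of PSME2 and PSMG4, the 2 genes of the activators and assembly factors that rose at day 3. Each window runs from 250 bases before to 20 bases after the start in RefSeq (GRCh38.p14), 5′ to 3′ on the gene's strand. RefSeq gives PSMB8 and TAP1 a second window each, at chr6:32844660-32844929 and chr6:32852742-32853011, which held no match to either motif and are not printed. Capitals mark matches on either strand to GAAA, 2 bases of any kind and GAAA again (below, the GAAA pair), the core of the interferon-stimulated response element, or to TGACNNNGC, the core of the antioxidant response element to which NFE2L1 binds.
PSMB9, chr6:32853942-32854211, plus strand: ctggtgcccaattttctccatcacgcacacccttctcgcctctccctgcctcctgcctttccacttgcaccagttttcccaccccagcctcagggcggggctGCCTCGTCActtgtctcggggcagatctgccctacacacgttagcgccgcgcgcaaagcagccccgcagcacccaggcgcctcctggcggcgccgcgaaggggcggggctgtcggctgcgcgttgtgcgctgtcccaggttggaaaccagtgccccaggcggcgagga
TAP1, chr6:32853685-32853954, minus strand: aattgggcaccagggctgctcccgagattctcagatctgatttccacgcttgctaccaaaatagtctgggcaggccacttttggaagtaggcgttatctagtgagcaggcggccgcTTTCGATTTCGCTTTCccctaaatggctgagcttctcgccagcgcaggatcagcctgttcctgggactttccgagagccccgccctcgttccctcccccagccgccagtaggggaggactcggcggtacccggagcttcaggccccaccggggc
PSMB8, chr6:32844028-32844297, minus strand: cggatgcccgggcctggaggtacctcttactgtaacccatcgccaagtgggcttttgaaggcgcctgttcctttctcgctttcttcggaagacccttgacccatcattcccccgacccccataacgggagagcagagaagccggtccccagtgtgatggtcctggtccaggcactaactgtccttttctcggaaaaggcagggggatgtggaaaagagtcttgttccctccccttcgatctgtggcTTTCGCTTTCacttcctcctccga
PSMB10, chr16:67936831-67937100, minus strand: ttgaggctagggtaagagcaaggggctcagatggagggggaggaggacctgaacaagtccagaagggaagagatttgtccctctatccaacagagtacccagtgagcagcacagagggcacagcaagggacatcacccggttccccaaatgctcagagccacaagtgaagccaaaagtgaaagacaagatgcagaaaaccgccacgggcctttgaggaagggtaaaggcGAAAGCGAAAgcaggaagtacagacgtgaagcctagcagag
PSME2, chr14:24146591-24146860, minus strand: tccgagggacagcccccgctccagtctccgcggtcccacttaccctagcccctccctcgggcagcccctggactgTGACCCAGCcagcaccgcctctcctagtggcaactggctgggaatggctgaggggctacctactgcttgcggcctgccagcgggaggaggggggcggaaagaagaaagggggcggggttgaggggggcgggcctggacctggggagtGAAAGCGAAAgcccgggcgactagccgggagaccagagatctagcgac
PSMG4, chr6:3258697-3258966, plus strand: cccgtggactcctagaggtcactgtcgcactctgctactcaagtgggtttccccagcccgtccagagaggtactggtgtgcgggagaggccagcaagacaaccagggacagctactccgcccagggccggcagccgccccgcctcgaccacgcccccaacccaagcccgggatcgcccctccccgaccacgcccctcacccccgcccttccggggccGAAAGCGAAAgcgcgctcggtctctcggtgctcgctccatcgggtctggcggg
Counting the start site as 0, the GAAA pair lay at -4 to 5 in PSMB8, at -21 to -12 in PSMB10, at -28 to -19 in PSME2, at -33 to -24 in PSMG4, and in TAP1 in a pair of overlapping matches at -134 to -125 and -128 to -119. The PSMB9 window held TGACNNNGC at -148 to -140 and no GAAA pair, and that of PSME2 held both, with TGACNNNGC at -175 to -167. Windows were found for 40 of the 46 proteasome genes, all but PSMA7, PSMB1, PSMB6, PSMB7, PSMD4 and PSMG3. The GAAA pair was in the windows of 7 of the 40 genes (17.5%), against 4.0% of all 27305 genes with a window, and the 7 were PSMA4, PSMB4, PSMB8, PSMB10, PSME1, PSME2 and PSMG4. In PSMB8, PSMB10, PSME1, PSME2 and PSMG4 the match read GAAAGCGAAA on 1 of the strands, a string found in 32 of the 27305 genes and searched for after the windows had been seen. TGACNNNGC was in 13 of 40 (32.5%, against 14.5% of all genes), the gamma-activated site TTCNNNGAA in 6 of 40 (against 8.7% of all genes) and CCAAT in 19 of 40 (47.5%, against 38.2%), each searched on both strands. Of the 7 genes with the GAAA pair, PSMA4, PSME2 and PSMG4 rose at day 3 by edgeR. Over all 46 proteasome genes 10 rose, and over all tested genes 5.72% did. In PSMA4 the pair lay at -240 to -231 in 1 window, and its other windows held none (not printed). PSMA7 and PSMB7, also called at day 3, had no window. PSMB9, with the highest log2 fold change, held no GAAA pair in its window. The TAP1 matches lie between the starts of TAP1 and PSMB9, beyond the 250 bases before the PSMB9 start. A link between matches and rises was not tested. A match is a run of letters and not a measured site.

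The ATPases of the regulatory particle form the ring that unfolds the substrate. Of the 6 genes, PSMC5 alone passed edgeR's threshold at day 3, beside 5.72% of all tested genes, and none passed it at day 5. At an unadjusted p below 0.05, 4 were higher and 0 lower at each time. The same counts over the 14601 genes were 2103 and 2120 at day 3 and 2346 and 2158 at day 5. DESeq2 called 2 and 1 higher at days 3 and 5, beside 1294 and 1459 of all genes. Limma called 1 and 0 higher, beside 598 and 1017. All 6 ATPase genes had positive log2 fold changes at both times, which share the 2 control libraries. Over the 14601 genes, 7297 were positive at day 3 and 7452 at day 5. The median of the 6 genes was 0.42 at day 3 and 0.40 at day 5, beside -0.0001 and 0.015 over all tested genes. PSMC5 had 26.2 and 26.5 FPKM at KO day 3 and 27.2 and 23.0 FPKM at KO day 5, against 18.0 and 18.7 FPKM in the controls. The groups did not overlap, and its log2 fold change was 0.56 at day 3 (SE 0.13, edgeR adjusted p = 0.0347) and 0.41 at day 5 (SE 0.13, edgeR adjusted p = 0.0747). PSMC4, the most abundant ATPase per length, had 69.0 and 70.7 FPKM at KO day 3 and 66.6 and 64.5 FPKM at KO day 5, against 52.1 and 63.9 FPKM in the controls, and did not pass. PSMC6, the least abundant, had 7.95 and 7.37 FPKM at KO day 3 and 8.89 and 8.08 FPKM at KO day 5, against 6.34 and 5.15 FPKM in the controls. Its KO values lay above both controls and its edgeR adjusted p was 0.0880 at day 3 and 0.0511 at day 5. PSMC1, PSMC2 and PSMC3 had log2 fold changes between 0.21 and 0.67 over both times and did not pass.

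Among the 11 non-ATPase genes the members differed in direction. PSMD8 and PSMD14 rose at day 3, PSMD7 and PSMD14 rose at day 5, and PSMD1 fell at day 5. Of all tested genes, 5.72% rose at day 3, and 7.44% rose and 7.05% fell at day 5. PSMD14, the deubiquitinase that removes the ubiquitin chain at the lid, had 11.9 and 13.0 FPKM at KO day 3 and 15.2 and 16.0 FPKM at KO day 5, against 8.51 and 8.98 FPKM in the controls. It rose by 0.55 on the log2 scale at day 3 (SE 0.12, edgeR adjusted p = 0.0294) and 0.79 at day 5 (SE 0.12, edgeR adjusted p = 0.00711), and no groups overlapped, the 2 KO times included. PSMD7, the partner of PSMD14 in the lid, had 22.4 and 23.0 FPKM at KO day 3 and 26.3 and 25.0 FPKM at KO day 5, against 18.4 and 17.1 FPKM in the controls. Its values were likewise separate in all 3 groups, with 0.49 on the log2 scale at day 5 (SE 0.13, edgeR adjusted p = 0.0380) and 0.39 at day 3, which did not pass (SE 0.13, edgeR adjusted p = 0.0874). PSMD8, a structural subunit of the lid, had 77.3 and 79.2 FPKM at KO day 3 and 72.8 and 66.2 FPKM at KO day 5, against 53.7 and 54.0 FPKM in the controls. It rose by 0.58 on the log2 scale at day 3 (SE 0.12, edgeR adjusted p = 0.0205), and the 0.33 at day 5 did not pass (SE 0.12, edgeR adjusted p = 0.0992) although the groups did not overlap.

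PSMD1, a large scaffold of the base that docks ubiquitin receptors, ran the other way. It had 15.6 and 15.6 FPKM at KO day 3 and 15.2 and 12.2 FPKM at KO day 5, against 19.1 and 19.2 FPKM in the controls, so every KO value lay below both controls. Its log2 fold change was -0.26 at day 3 (SE 0.14, edgeR adjusted p = 0.272) and -0.52 at day 5 (SE 0.14, edgeR adjusted p = 0.0472), and limma did not call it at day 5. PSMD2, the other large scaffold of the base, had log2 fold changes of 0.06 at day 3 and -0.25 at day 5 and did not pass. PSMD4, the ubiquitin receptor and the most abundant non-ATPase per length, had 79.5 and 81.1 FPKM at KO day 3 and 76.2 and 79.6 FPKM at KO day 5, against 56.2 and 67.7 FPKM in the controls. PSMD6, the least abundant, had 9.45 and 9.87 FPKM at KO day 3 and 10.4 and 9.17 FPKM at KO day 5, against 8.44 and 7.46 FPKM in the controls. Neither PSMD4 nor PSMD6 passed at either time, although their KO values lay above both controls. PSMD3, PSMD11, PSMD12 and PSMD13 had log2 fold changes between -0.15 and 0.42 over both times and did not pass.

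Of the 4 activator genes, PSME2 rose at day 3, beside 5.72% of all tested genes, and none passed edgeR's threshold at day 5. At day 5, 2 were higher and 0 lower at an unadjusted p below 0.05, beside 2346 and 2158 of the 14601 genes. DESeq2 called 1 higher at day 5 and limma 0, beside 1459 and 1017 of all genes. PSME1 and PSME2 encode the partners of the interferon-inducible cap PA28. PSME2 had 39.5 and 43.8 FPKM at KO day 3 and 35.7 and 41.8 FPKM at KO day 5, against 20.7 and 29.8 FPKM in the controls. The groups did not overlap, and its log2 fold change was 0.75 at day 3 (SE 0.19, edgeR adjusted p = 0.0407) and 0.57 at day 5 (SE 0.19, edgeR adjusted p = 0.0815). PSME1 had 75.0 and 81.8 FPKM at KO day 3 and 68.1 and 73.9 FPKM at KO day 5, against 75.7 and 68.4 FPKM in the controls. On the FPKM scale both of its KO groups thus overlapped the controls, and its log2 fold changes were 0.16 (SE 0.12) at day 3 and -0.06 (SE 0.12) at day 5. In CPM, the scale of the overlap counts, its KO day 3 values of 135.6 and 151.6 lay above both controls, at 133.95 and 123.06. PSME4, the nuclear activator PA200 and the least abundant of the 4, had 6.12 and 6.27 FPKM at KO day 3 and 6.85 and 9.15 FPKM at KO day 5, against 6.33 and 5.30 FPKM in the controls. PSME4 did not pass, and PSME3, the nuclear cap PA28 gamma, did not either, with log2 fold changes of 0.27 at day 3 and -0.12 at day 5.

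PSMF1 encodes PI31, known as an inhibitor of the core in vitro. It had 28.5 and 27.8 FPKM at KO day 3 and 27.6 and 27.1 FPKM at KO day 5, against 19.5 and 20.4 FPKM in the controls. PSMF1 rose at both times with no overlap between groups, by 0.53 on the log2 scale at day 3 (SE 0.11, edgeR adjusted p = 0.0230) and 0.41 at day 5 (SE 0.11, edgeR adjusted p = 0.0438).

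Of the 7 assembly factor genes, PSMG4 rose at day 3, beside 5.72% of all tested genes, and none passed edgeR's threshold at day 5. At day 5, 2 were higher and 1 lower at an unadjusted p below 0.05, beside 2346 and 2158 of the 14601 genes. DESeq2 and limma called 0 at day 5, and the FPKM filter left PSMD9 out of the limma test. PSMG1 to PSMG4 chaperone the alpha ring, and PSMD5, PSMD9 and PSMD10 chaperone the ATPase ring. PSMG4 had 3.84 and 4.29 FPKM at KO day 3 and 2.99 and 3.27 FPKM at KO day 5, against 2.06 and 2.50 FPKM in the controls. Its log2 fold change was 0.87 at day 3 (SE 0.17, edgeR adjusted p = 0.0188) and 0.41 at day 5 (SE 0.17, edgeR adjusted p = 0.144), and all 3 groups were separate, with day 5 between day 3 and control. PSMG3, the most abundant assembly factor per length, had 34.2 and 22.6 FPKM at KO day 3 and 28.8 and 19.8 FPKM at KO day 5, against 23.4 and 17.0 FPKM in the controls. On the FPKM scale its groups overlapped, and it did not pass. In CPM, the scale of the overlap counts, its KO day 3 values of 68.1 and 46.1 lay above both controls, at 45.5 and 33.6. PSMD9, the least abundant of all 46 genes, had 0.246 and 0.283 FPKM at KO day 3 and 0.321 and 0.265 FPKM at KO day 5, against 0.479 and 0.389 FPKM in the controls. Its KO values lay below both controls and its log2 fold changes of -0.67 and -0.60 at days 3 and 5 did not pass (SE 0.40 each). PSMD5, PSMD10, PSMG1 and PSMG2 had log2 fold changes between -0.34 and 0.46 over both times and did not pass.

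**Figure D4:**
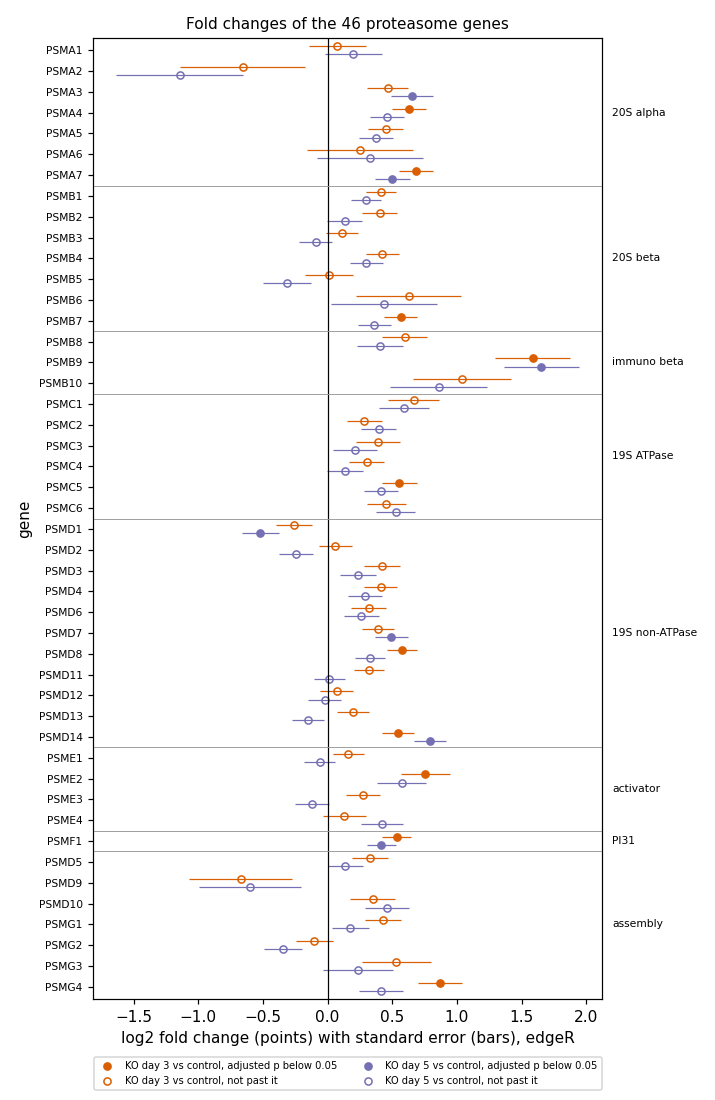
Log2 fold change of each of the 46 genes (rows, grouped by role) against control at KO day 3 (orange) and KO day 5 (purple), with bars of 1 SE from edgeR and filled points for an adjusted p below 0.05. The filled points number 10 at day 3 and 7 at day 5, PSMB9 lies farthest right at 1.59 and 1.65, and PSMD1 at day 5 is the filled point left of 0.

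Between the time points no proteasome gene passed. For KO day 5 against KO day 3, edgeR called 0 of the 46 genes higher and 0 lower, where 0.0274% of all tested genes were called higher and 0% lower, and DESeq2 and limma called 0 as well, beside 435 and 1 of all genes. At an unadjusted p below 0.05, 0 were higher and 5 lower at day 5, namely PSMD2, PSMD11, PSMD13, PSME3 and PSMG4, beside 1249 higher and 957 lower of the 14601 genes. Both day 5 libraries lay below both day 3 libraries for 23 of the 46 genes, against 23.8% of all genes, and above both for 5 (PSMA3, PSMD7, PSMD10, PSMD14 and PSME4), against 25.5%. The median log2 fold change was -0.18, beside 0.021 over all tested genes. PSMD13 had 30.5 and 32.6 FPKM at KO day 3 and 25.7 and 26.5 FPKM at KO day 5, against 26.8 and 29.6 FPKM in the controls, so day 3 lay above and day 5 below both controls. Its log2 fold change between the days was -0.35 (edgeR adjusted p = 0.261).

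Other genes of the pathway were taken from lists given with the processing. Of 20 partners of the particle (assembly, shuttling and associated deubiquitination), 3 rose at day 3 (5.72% of all genes) and 5 at day 5 (7.44% of all genes), and none fell at either time (5.99% and 7.05% of all genes). POMP, the chaperone of beta ring assembly, had 123 and 116 FPKM at KO day 3 and 140.3 and 128 FPKM at KO day 5, against 78.1 and 88.9 FPKM in the controls, and rose at both times (log2 fold changes 0.55 and 0.64, edgeR adjusted p = 0.0318 and 0.0164). PAAF1, a regulator of regulatory particle docking, had 3.86 and 3.74 FPKM at KO day 3 and 3.79 and 4.49 FPKM at KO day 5, against 1.70 and 2.27 FPKM in the controls, and rose at both times (log2 fold changes 0.97 and 1.01, edgeR adjusted p = 0.0203 and 0.0149). For both genes every KO value lay above both controls. TXNL1, a thioredoxin-like protein bound to the regulatory particle, also rose at both times, by 0.63 and 0.65 on the log2 scale (edgeR adjusted p = 0.0163 and 0.0128). The shuttle receptor RAD23B rose at day 5 (log2 fold change 0.40, edgeR adjusted p = 0.0465), as did the deubiquitinase UCHL5 (0.58, edgeR adjusted p = 0.0190).

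Of 10 genes of the response to low proteasome activity, 3 rose at day 3 and 2 at day 5, and none fell, beside the same shares of all genes. NFE2L1, its transcription factor, had 51.3 and 52.7 FPKM at KO day 3 and 48.7 and 54.2 FPKM at KO day 5, against 26.1 and 35.9 FPKM in the controls. NGLY1, the glycanase that processes the NFE2L1 protein, had 2.60 and 2.66 FPKM at KO day 3 and 2.94 and 3.46 FPKM at KO day 5, against 1.37 and 1.36 FPKM in the controls. The KO and control values of NFE2L1 and NGLY1 did not overlap. NFE2L1 rose by 0.78 and 0.69 on the log2 scale at days 3 and 5 (edgeR adjusted p = 0.0243 and 0.0309) and NGLY1 by 0.98 and 1.19 (edgeR adjusted p = 0.0141 and 0.00618). DDI2, the protease that cleaves NFE2L1, rose at day 3 (log2 fold change 0.59, edgeR adjusted p = 0.0385) and stood at 0.08 at day 5 (edgeR adjusted p = 0.764). NFE2L2, a related factor, did not pass, at log2 fold changes of -0.39 and -0.06. At an unadjusted p below 0.05 by edgeR, 4 of these 10 genes were higher and 2 lower at day 3, beside 2103 and 2120 of all genes. The 2 were MAFF and MAFG, at log2 fold changes of -0.63 and -0.36, and neither passed the threshold. At day 5, 4 were higher and 0 lower, beside 2346 and 2158 of all genes. DESeq2 called 3 and 2 higher at days 3 and 5, beside 1294 and 1459 of all genes, and limma 2 and 2, beside 598 and 1017. Both called 0 lower, beside 1344 and 1518 of all genes by DESeq2 and 743 and 779 by limma. Of 4 ubiquitin and ubiquitin-activating genes, 0 passed edgeR's threshold at either time, with 1 higher at an unadjusted p below 0.05 at day 3 and 0 at day 5, and 1 and 0 higher by DESeq2 in that order.

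Of 11 genes of MHC class I peptide loading and its regulators, 3 rose at day 3, beside 5.72% of all genes, and 4 rose and 1 fell at day 5, beside 7.44% and 7.05%. DESeq2 called 3 higher at day 3, beside 1294 of all genes, and 4 higher and 1 lower at day 5, beside 1459 and 1518. By limma only TAP2 was called at day 3, and only TAP1 and TAP2 at day 5, all higher. Limma called 598 and 1017 of all genes higher at days 3 and 5. TAP1, a subunit of the peptide transporter, had 8.73 and 14.0 FPKM at KO day 3 and 9.78 and 15.1 FPKM at KO day 5, against 5.06 and 5.22 FPKM in the controls. Its partner TAP2 had 4.03 and 5.18 FPKM at KO day 3 and 3.90 and 4.64 FPKM at KO day 5, against 2.54 and 1.79 FPKM in the controls. Both rose at both times with no overlap between KO and control, TAP1 by 1.18 and 1.23 (edgeR adjusted p = 0.0377 and 0.0293) and TAP2 by 1.13 and 0.94 (edgeR adjusted p = 0.0203 and 0.0311) on the log2 scale. B2M, the class I light chain, rose by 0.69 and 0.68 (edgeR adjusted p = 0.0380 and 0.0342). IRF1, an interferon-induced transcription factor, rose at day 5 (log2 fold change 0.75, edgeR adjusted p = 0.0399), and TAPBP, the bridge between transporter and class I, fell at day 5 (-0.55, edgeR adjusted p = 0.0305). NLRC5, also on this list, had log2 fold changes of -0.39 at day 3 and -0.47 at day 5. It did not pass (edgeR adjusted p = 0.251 and 0.164). Of the 9 calls in these lists at day 3, 1 (TAP1) and 0 were still made without replicate 1 or 2 of KO day 3, and 4 and 6 without replicate 1 or 2 of the controls. For day 3, edgeR's adjusted p of these 9 genes was at most 0.185 and 0.253 without the 2 KO day 3 libraries in that order. Of the 12 calls at day 5, 5 and 2 were still made without replicate 1 or 2 of KO day 5, 6 and 7 without replicate 1 or 2 of KO day 3, and 6 and 8 without replicate 1 or 2 of the controls. NGLY1 was among them in each case, beside POMP alone without KO day 5 replicate 2.

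The 3 proteasome genes with the lowest levels in this table overlap other annotated genes on the same strand. In GENCODE 29, 5 of the 46 genes share at least 20% of their coding bases with another gene on the same strand, a threshold chosen after the values had been seen. They are PSMA2 (97.1%, with AC010132.3), PSMA1 (88.6%, with AC018523.2), PSMA6 (70.4%, with AL121594.1), PSMD9 (58.7%, with AC069503.2 and WDR66) and PSMB10 (58.3%, with AC040162.1). The mean FPKM over the 6 libraries was 0.331 to 14.1 with a median of 0.586 in these 5 genes, and 3.16 to 145 with a median of 28.4 in the other 41. The 3 lowest of the 46, PSMD9, PSMA6 and PSMA2, are all among the 5. PSMA1 and PSMB10, at means of 5.87 and 14.1 FPKM, lay within the range of the other 41. PSMA6 had 0.434 and 0.504 FPKM at KO day 3 and 0.433 and 0.610 FPKM at KO day 5, against 0.338 and 0.467 FPKM in the controls. PSMA2 had 0.529 and 0.515 FPKM at KO day 3 and 0.560 and 0.223 FPKM at KO day 5, against 0.873 and 0.818 FPKM in the controls. PSMA2 and PSMA6 encode obligate members of the alpha ring, beside PSMA7 at 67.1 FPKM or more in every library. How reads in shared exons were counted is not given in the sources used here, so the values of these 5 genes, PSMB10 included, are uncertain, and the cause of the low levels was not tested. On the opposite strand, PSMC1 shares 47.7% of its coding bases with NRDE2, PSMD7 28.4% with AC009120.2 and PSMB8 14.0% with its antisense neighbours, and without a stated strand setting such reads cannot be told apart. TAP2 shares 90.6% of its coding bases with AL669918.1 on the same strand.

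**Figure D5:**
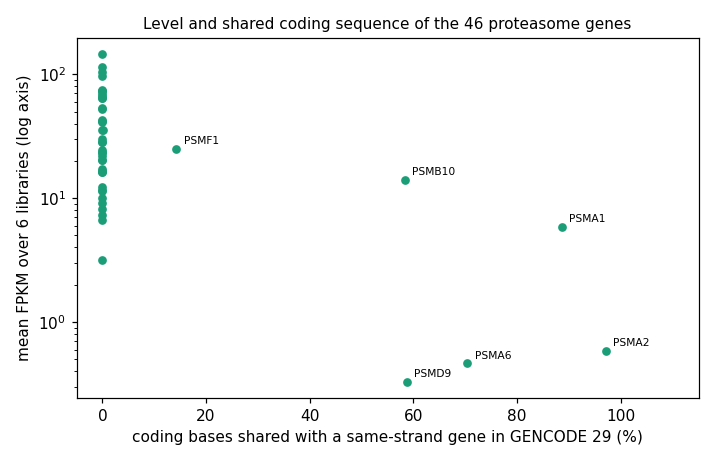
Mean FPKM over the 6 libraries (log axis) of each of the 46 proteasome genes, 1 point per gene, against the percentage of its coding bases shared with another same-strand gene in GENCODE 29. The 5 labelled genes at 58.3% or more lie between 0.331 and 14.1 FPKM, and the other 41 lie between 3.16 and 145 FPKM.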

How the data were processed

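The authors' deposited table gives raw read counts and FPKM values per gene and library, per the file headers. The submitters' processing notes list HISAT2, HTSeq 0.11.2, DESeq2 1.26.0 and GRCh38 without saying what each did. Annotation, strand setting and counting options: not given in the sources used here. The deposited FPKM values equal the count over the table total and over the GENCODE 29 exon length, for 46 of 46 proteasome genes within 0.5 bases. Poly-T beads and a kit not stated to keep strand were used, per the labels.

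Deposited counts were tested with edgeR 4.0.16 in R 4.3.3 (TMM factors, filterByExpr with minimum count 10 and total 15, robust quasi-likelihood fit of the 3 groups, no block, prior count 0.125). Benjamini-Hochberg adjustment ran over all 14601 tested genes and calls were made below 0.05. There were 3 residual degrees of freedom, and SE was taken as |log2 fold change| divided by the root of F. CPM are TMM-scaled. Overlap of libraries was counted in CPM. Libraries of a group differed beyond sampling noise (chi-square over its degrees of freedom at least 17.4).

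Alternatives changed the factors (relative log expression, upper quartile), the filter (none, or at least 5 CPM in 2 libraries), the tool (DESeq2 1.42.0), the samples (only the groups compared, or 1 library left out) or the design (replicate block). The deposited FPKM were also tested with limma 3.58.1 after adding 1 or 0.1 and taking log2, keeping means from 0.5 FPKM upwards, and after adding 1 without that filter. Promoter windows come from RefSeq (GRCh38.p14).

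Named with values per library are the members past the threshold, the catalytic genes and the most and least abundant member of each role. Of the lists, the genes named are at most 5 each with the smallest p against control, with POMP, NFE2L1, TAP1 and TAP2. RAD23B, NFE2L2, MAFF, MAFG, IRF1, NLRC5 and PSMD13 were named after their values were seen. The partner list held POMP, ADRM1, SEM1, PAAF1, AKIRIN2, ECPAS, USP14, UCHL5, UBE3C, TXNL1, RAD23B, UBQLN1, UBQLN2, UBQLN4, ZFAND5, ZFAND2A, FBXO7, VCP, UFD1 and NPLOC4. The response list held NFE2L1, NFE2L2, NFE2L3, DDI2, NGLY1, SYVN1, BTRC, MAFF, MAFG and MAFK. The ubiquitin list held UBB, RPS27A, UBA1 and UBA6. The class I list held TAP1, TAP2, TAPBP, TAPBPL, ERAP1, ERAP2, NLRC5, B2M, CALR, PDIA3 and IRF1. Some genes of these lists are not reported here and are left out of their counts. The members and lists were chosen with earlier results of these data known.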

Additional observations from a re-analysis of the deposited data

How the results depend on the processing

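At day 3, the 10 proteasome genes called became 20 with no filter, 17 with DESeq2, 27 with the replicate block and 0 with limma on unfiltered log2(FPKM + 1), and between 0 and 19 with 1 library left out. Calls over all genes moved too, to 2925, 2638, 4064 and 254 under the first 4 settings and to between 282 and 1906 with 1 library left out, beside 1710. At day 5, the 7 called became 2 with only the groups compared, 22 with the replicate block (20 higher, 2 lower) and 1 with limma on unfiltered values, and between 1 and 10 with 1 library left out, while all genes gave 1315, 4418, 605 and between 723 and 1874, beside 2117. Between the days, the count of 0 became 1 with the replicate block (lower at day 5) and was 0 under the other alternatives run. Same-numbered libraries deviated together, with correlations of 0.30 to 0.35 over 14601 genes and 0.42 to 0.54 over the 46 proteasome genes. The titles carry the letters A and B along with the numbers. The labels do not say what these mark, so they are not taken to pair the samples. With the replicate block, edgeR also called PSMB8 (adjusted p = 0.000715 and 0.0106 at days 3 and 5), PSMB10 (0.00928 and 0.0216) and, at day 3, PSMB6 (0.0205). The immunoproteasome share was 44.5% at KO day 3 and 46.1% at KO day 5, against 38.2% in the controls, in CPM, which are not per length. In FPKM with 1 library left out it was 31.6% to 32.6%, 32.1% to 34.7% and 26.6% to 26.7% in the same order, and the ratios of summed FPKM were 1.22 to 1.36 at day 3 and 1.15 to 1.28 at day 5. The log2 fold change of PSMB5 at day 3 changed sign to -0.0195 with the 5 CPM filter, -0.24 without control replicate 1 and -0.0003 without KO day 3 replicate 2, within a range of -0.24 to 0.33 with 1 library left out. That of PSMB6 at day 5 changed sign to -0.0444 without control replicate 1, within a range of -0.0444 to 1.12. The causes were not tested. Followed over all alternatives were the genes called and the 6 catalytic genes, and of their values 540 kept their side of the threshold and sign, 190 lost their call, 18 gained one and 4 changed sign. Other genes that gained a call are counted in the totals above. With 2 libraries a group, no group has its own check of an aberrant library, and calls lost with 1 library left out come from fits with fewer samples.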
